A study of Homo sapiens with 6 samples.

Results

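Inhibitors of cyclin-dependent kinases (CDKs) and the retinoblastoma family were followed across growing and RASv12 senescent WI-38 cells. Of the 10 genes listed, 9 had probe sets, 18 in all among 22215 tested on the array. CDKN2C, which encodes p18, was paired with no probe set in the annotation used and is not analysed here. Each probe set annotated to a member was taken, whether or not its signal was high, and each is described separately. CDKN1C had 5 probe sets, CDKN2A had 3, and CDKN2D, RB1 and RBL2 had 2 each, so several of the 18 read the same gene.

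WI-38 is a diploid fibroblast strain from human fetal lung. The 3 control samples are labelled wild type and growing. The 3 RASv12 samples overexpressed RASv12, a constitutively active form of the RAS GTPase, and are labelled senescent. All cells were kept at 3% oxygen and the labels' protocols describe retroviral gene transfer. An empty vector for the controls, the time from infection to harvest and the RAS gene used are not named. Nothing tells separate cultures from repeats of one culture within a group, so a p-value here reflects sample-to-sample spread that could be technical. The labels give Cy5 for control samples and Cy3 for RASv12 samples, although the array design is read in one colour and the deposited values do not show which label was used. If both dyes were used, dye and group cannot be told apart, and the same holds for infection if the controls were not infected.

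Cells leave G1 when cyclin-CDK complexes phosphorylate the pocket proteins pRB, p107 and p130, encoded by RB1, RBL1 and RBL2. Unphosphorylated pocket proteins bind E2F transcription factors and keep cell cycle genes off. The INK4 proteins, from CDKN2A, CDKN2B, CDKN2C and CDKN2D, block the cyclin D kinases, and the CIP/KIP proteins, from CDKN1A, CDKN1B and CDKN1C, bind a wider range of cyclin-CDK complexes. In oncogene-induced senescence of fibroblasts, p16 and p21 are the inhibitors most often measured. Much of the regulation of p27 and of the pocket proteins is by phosphorylation and protein turnover, which an RNA array does not read.

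Values are the deposited MAS5 signal intensities, in linear units with a mean of 100 on every array after trimming 2% of probe sets at each end. Depending on the array, 48.6% to 54.1% of probe sets exceeded 28, the highest intensity of 27 bacterial control probe sets, and a probe set is called dim here where all 3 arrays of a group lay at or under that level. HRAS, the RAS gene that could be read here, had intensities of 222, 189 and 234 in control cells and 816, 753 and 990 in RASv12 cells. All 14 fibroblast markers listed were above the low controls in both groups, with a summed intensity of 27293 to 29605 on control arrays and 14574 to 17223 on RASv12 arrays, and 9 of the 14 fell and 1 rose. Epithelial markers summed to 205 to 221 and 137 to 161 over 10 genes, endothelial markers to 118 to 153 and 119 to 188 over 8, and leukocyte markers to 40.8 to 80.0 and 68.4 to 132 over 8. In each of these 3 lists 5 genes were dim in both groups, among them EPCAM, CDH1, VWF, CDH5, PTPRC, CD14 and LYZ. Others were not: KRT19 (mean 52.7 in control cells, at least 1.88-fold lower in RASv12 cells), KRT8, MUC1 and SFTPC exceeded 28 on control arrays. CLDN4, PECAM1, CD3E and ITGAM exceeded 28 on some array and were not called. TEK (78.6 and 26.4) fell and TIE1 (1.34 and 48.2) rose. CSF1R (7.30 and 23.9), over 28 on 1 RASv12 array, and MS4A1 (7.14 and 20.0), dim in both groups, were called higher with means under the low controls. What part these marker differences have in the results was not tested. In bulk RNA, fewer cells with a transcript and less of it per cell cannot be told apart.

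The promoters of 4 members are shown for what lies just upstream of their starts. RefSeq entries for GRCh38.p14 were found for 9 of the 10 genes, and the 250 bases before the start are printed for CDKN1A, which rose, CDKN1B, which fell, both starts of CDKN2A listed there, which serve different transcripts of one locus, and RBL1, which held matches to an E2F-type motif. Capitals mark matches on either strand to the GC box GGGCGG, bound by SP1-type factors, or to the E2F-type motif TTTNNCGC; TTTGAA, a cell cycle homology region motif, was searched too and matched in none of these windows.
CDKN1A, chr6:36678464-36678713, plus strand: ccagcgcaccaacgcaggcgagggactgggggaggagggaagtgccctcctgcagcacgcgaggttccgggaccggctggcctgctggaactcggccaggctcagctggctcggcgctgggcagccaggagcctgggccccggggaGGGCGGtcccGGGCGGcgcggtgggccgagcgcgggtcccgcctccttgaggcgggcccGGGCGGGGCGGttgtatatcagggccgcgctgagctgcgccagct
CDKN1B, chr12:12717118-12717367, plus strand: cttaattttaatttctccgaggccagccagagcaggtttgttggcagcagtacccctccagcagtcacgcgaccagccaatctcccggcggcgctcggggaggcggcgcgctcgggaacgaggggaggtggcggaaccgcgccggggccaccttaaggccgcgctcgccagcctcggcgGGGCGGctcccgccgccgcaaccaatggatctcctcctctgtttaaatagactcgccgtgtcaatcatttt
CDKN2A, distal start, chr9:21995325-21995574, minus strand: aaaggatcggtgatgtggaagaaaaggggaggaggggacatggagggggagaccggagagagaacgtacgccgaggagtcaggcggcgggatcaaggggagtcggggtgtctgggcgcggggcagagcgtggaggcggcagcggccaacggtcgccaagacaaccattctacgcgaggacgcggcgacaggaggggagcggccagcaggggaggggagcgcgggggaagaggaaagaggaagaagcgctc
CDKN2A, proximal start, chr9:21974858-21975107, minus strand: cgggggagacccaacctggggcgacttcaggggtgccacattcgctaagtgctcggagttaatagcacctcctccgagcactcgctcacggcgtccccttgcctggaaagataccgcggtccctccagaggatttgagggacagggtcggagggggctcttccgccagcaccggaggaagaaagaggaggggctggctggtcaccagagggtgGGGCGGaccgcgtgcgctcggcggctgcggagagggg
RBL1, chr20:37095998-37096247, minus strand: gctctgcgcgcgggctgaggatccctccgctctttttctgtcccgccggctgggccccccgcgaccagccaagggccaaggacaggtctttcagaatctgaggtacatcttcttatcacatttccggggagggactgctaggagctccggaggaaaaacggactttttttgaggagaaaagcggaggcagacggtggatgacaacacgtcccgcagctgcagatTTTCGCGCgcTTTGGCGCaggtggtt

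The CDKN1A window held 4 GC boxes, beginning 104, 94, 45 and 40 bases upstream of the start, and the last 2 overlap. CDKN1B held 1 GC box, 71 bases upstream, and the proximal CDKN2A window held 1, 37 bases upstream, while the distal CDKN2A window held no match to any of the 3 motifs. RBL1 held 2 E2F-type matches, 26 and 16 bases upstream. Of the windows not printed, CDKN2D held 1 E2F-type match, 216 bases upstream, and 2 GC boxes, CDKN2B held 2 GC boxes, and the 3 CDKN2C windows held 0, 5 and 1. Over 34943 promoter windows of the same length, 42.5% held the GC box, 5.89% the E2F-type motif and 13.4% TTTGAA. These are matches of letters and are no evidence of binding.

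CDKN1A rose, CDKN1B and CDKN1C fell, and CDKN2A rose on 1 of its 3 probe sets, while no probe set of RB1, RBL1 or RBL2 passed the test. In all, 7 of 18 member probe sets (38.9%) were called at an adjusted p under 0.05 in limma, 3 higher and 4 lower in RASv12 cells, against 24.3% of all probe sets, 11.3% higher and 13.0% lower. With several probe sets of one gene among so few, these shares are a description. The 10 probe sets dim in both groups included 3 of the 7 calls, and among the 8 others 2 rose and 2 fell. The median log2 change of the 18 was -0.20, against 0.01 for all probe sets. On deposited intensities, control and RASv12 arrays were fully separated for 12 of the 18 (3 higher, 9 lower), against 38.1% of all probe sets (18.0% higher, 20.1% lower). The 9 lower included all 5 probe sets of CDKN1C. Those separated also included probe sets dim in both groups, namely 4 of CDKN1C and those of CDKN2B and RBL1.

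**Figure D1:**
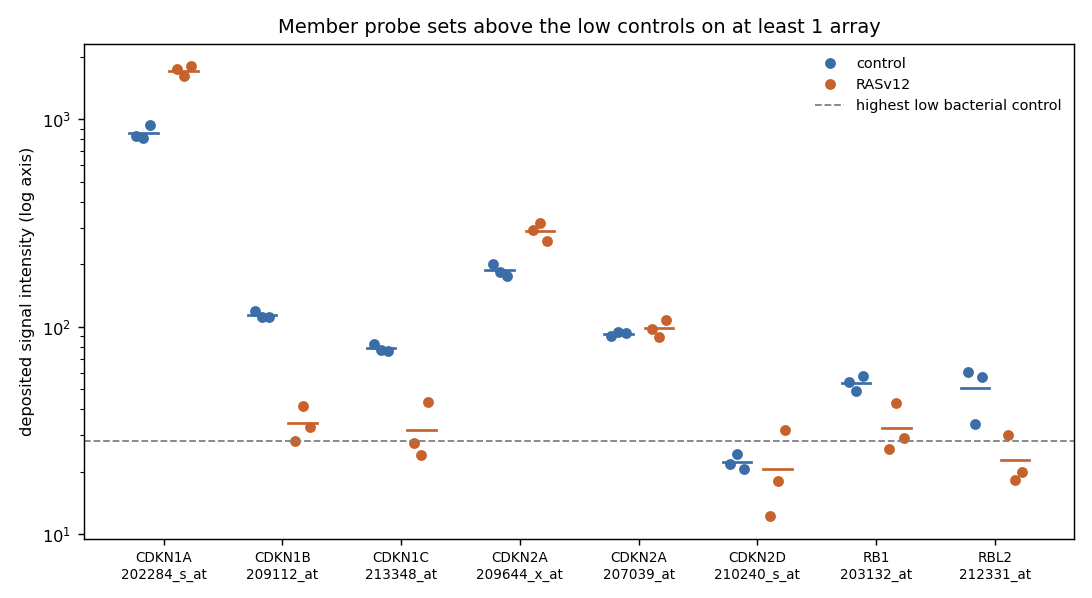
Deposited signal intensity (log axis) of the 8 member probe sets that lay above the low bacterial controls on at least 1 array, with 3 control and 3 RASv12 arrays as points, group means as bars and the highest low control, 28, as a dashed line. CDKN1A is higher on all 3 RASv12 arrays, CDKN1B, CDKN1C, RB1 and RBL2 are lower, and CDKN2A separates on 1 probe set and overlaps on the other.

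CDKN1A encodes p21, a broad CDK inhibitor and a classic p53 target. Its single probe set, 202284_s_at, read 833, 807 and 941 in control cells and 1735, 1612 and 1794 in RASv12 cells. All 3 RASv12 arrays lay above every control array. Mean intensity went from 860 ± 71.2 (SD, n = 3) to 1714 ± 93.3, and the log2 change was 0.97 ± 0.11 (SE) with adjusted p = 0.0011 in limma. Of all probe sets, 3.17% rose by more.

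CDKN1B encodes p27, which restrains cyclin E and cyclin A kinases in resting cells. The intensities of its single probe set, 209112_at, were 119, 111 and 111 in control cells and 28.2, 41.6 and 32.7 in RASv12 cells. The RASv12 arrays were all below the controls and close to the low controls, the lowest of them just above. Mean intensity fell 3.33-fold, from 114 ± 4.94 (SD, n = 3) to 34.2 ± 6.84. On the log2(value + 16) scale, which understates changes of dim transcripts, CDKN1B fell by 1.34 ± 0.12 (SE; limma adjusted p = 4.6e-04), and a pseudocount of 64 gave -0.83. Among the 8 probe sets above the low controls on some array, this was the largest fall on that scale. Thus the 2 best known CIP/KIP inhibitors had opposite changes on the same arrays.

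CDKN1C encodes p57, an imprinted CIP/KIP inhibitor of development. Only 1 of its 5 probe sets was above the low controls, 213348_at, with 82.5, 76.8 and 76.2 in control cells and 27.5, 24.0 and 43.5 in RASv12 cells. The groups did not overlap, although only 1 of the 3 RASv12 arrays exceeded the low controls. It fell by 0.96 ± 0.14 (SE, n = 3 per group; limma adjusted p = 0.0035), and a pseudocount of 64 gave -0.55. The other 4 CDKN1C probe sets were dim on all 6 arrays, with means of 6.08 to 14.5 in control cells and 1.10 to 1.95 in RASv12 cells. Each was lower on every RASv12 array than on any control array, and 2 of them, 219534_x_at and 216894_x_at, were called, but both groups lay within the low controls, which leaves no fold to report. The call of 219534_x_at was lost without any 1 of 5 of the 6 samples (all but control replicate 2) and with a pseudocount of 64 (-0.25), and that of both with scaling to the hybridization controls (-0.44 and -0.34). Probe sets whose names end in _x_at hold probes that can match other sequences, as 3 of these 4 do.

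CDKN2A encodes p16 and, from another first exon and reading frame, p14ARF, which stabilises p53 by binding MDM2. The annotation does not say which transcript each probe set reads. Its brightest probe set, 209644_x_at, gave 201, 184 and 175 in control cells and 292, 315 and 259 in RASv12 cells. The groups were apart, and the mean went from 187 ± 13.0 (SD, n = 3) to 288 ± 28.2. The rise was 0.58 ± 0.10 (SE; limma adjusted p = 0.0086), or 0.88 with arrays scaled to the hybridization controls. The second probe set, 207039_at, gave 90.5, 94.5 and 92.6 in control cells and 97.8, 89.2 and 108 in RASv12 cells, and these overlapped. Its log2 change of 0.12 (95% interval -0.10 to 0.34) had adjusted p = 0.40 in limma, so the upper bound of that interval lay near the lower bound of the first probe set, 0.33. The third, 211156_at, was dim on all arrays.

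The ratio of these 2 CDKN2A probe sets within each array, computed with their separate changes known, restates them on one scale. The log2 difference of 209644_x_at over 207039_at was 1.06, 0.88 and 0.83 on the control arrays and 1.35, 1.60 and 1.18 on the RASv12 arrays. It was larger on all 3 RASv12 arrays, by a mean of 0.45, with an exact two-sided permutation p = 0.1, the smallest that 3 against 3 samples allow, so this test could not pass 0.05. This was the only pair of probe sets of one member that could be compared above the low controls. The brighter one is an _x_at probe set, and whether related sequence adds to its signal was not tested.

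CDKN2B encodes p15, an INK4 inhibitor that TGF-beta induces in many cells. The intensities of 207530_s_at were 2.20, 1.24 and 0.706 in control cells and 15.5, 14.8 and 8.56 in RASv12 cells. All 6 values were under the low controls, so that the call (limma adjusted p = 0.013) has no fold, and leaving out control replicate 3 (adjusted p = 0.053) or RASv12 replicate 2 (adjusted p = 0.051) ended it. CDKN2D encodes p19, the INK4 member most tied to the cell cycle itself. Its brighter probe set, 210240_s_at, read 21.8, 24.4 and 20.5 in control cells and 12.2, 18.0 and 31.8 in RASv12 cells. Only the last of these exceeded the low controls, the groups overlapped, and the log2 change was -0.10 (95% interval -0.47 to 0.27). The other CDKN2D probe set was dim on all arrays.

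**Figure D2:**
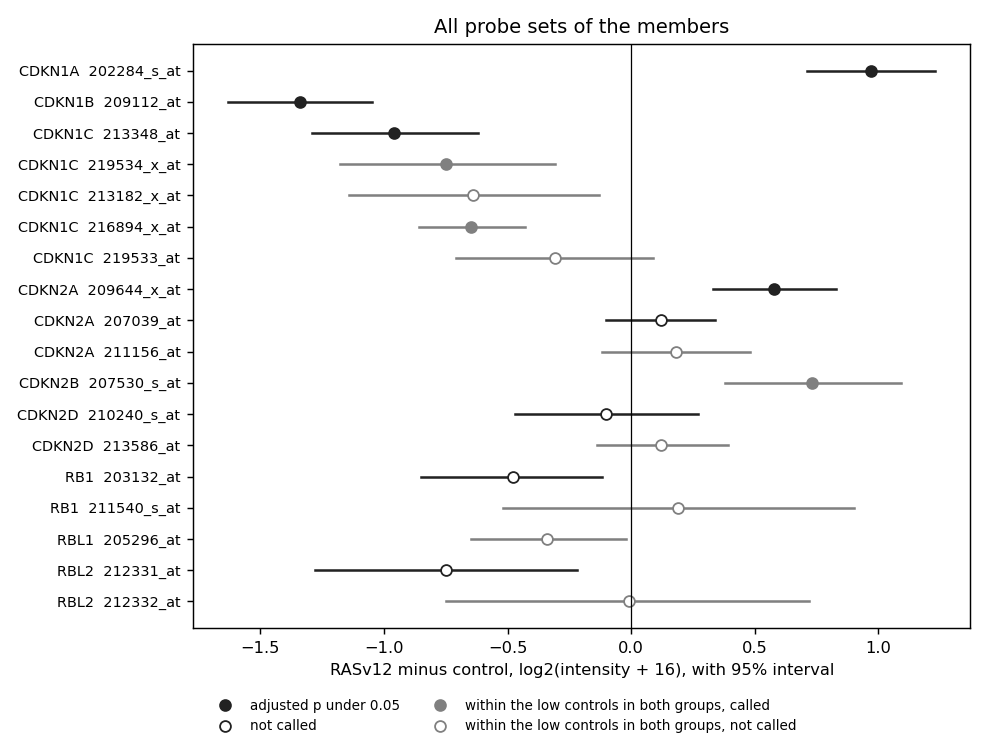
Log2 change, RASv12 minus control, of log2(intensity + 16) for all 18 member probe sets, with 95% intervals from limma, n = 3 arrays per group; filled points were called, open ones were not, and grey points were dim in both groups. CDKN1A at 0.97 and CDKN1B at -1.34 are at the ends, and the RB1 and RBL2 probe sets above the low controls are at -0.48 and -0.75 and not called.

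RB1 encodes pRB, the pocket protein that binds activating E2F factors. Its probe set 203132_at gave 54.0, 48.7 and 57.5 in control cells and 25.6, 42.9 and 29.1 in RASv12 cells. Every RASv12 array was under every control array, and RASv12 replicate 2 was the closest to the controls. The log2 change of -0.48 (95% interval -0.85 to -0.12, before any adjustment) had limma adjusted p = 0.064 and did not pass. It passed without RASv12 replicate 2 (adjusted p = 0.018) and under 4 other alternatives, and was -0.23 (adjusted p = 0.25) with scaling to the hybridization controls. The other RB1 probe set, 211540_s_at, was dim on all arrays and overlapped.

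RBL2 encodes p130, the pocket protein most abundant in quiescent cells, where it assembles the DREAM repressor complex. Its probe set 212331_at gave 60.5, 34.0 and 57.1 in control cells and 30.0, 18.3 and 19.8 in RASv12 cells. The groups did not overlap, yet control replicate 2 was close to the highest RASv12 array, and 1 of 3 RASv12 arrays exceeded the low controls. The log2 change was -0.75 ± 0.22 (SE; limma adjusted p = 0.051), which missed the threshold, and it passed without control replicate 2 (adjusted p = 0.034), without RASv12 replicate 1 (0.021), with the replicate number as a block (0.039) and under 4 other alternatives. Its change was -0.47 when arrays were scaled to hybridization controls and -0.38 with a pseudocount of 64. The second RBL2 probe set, 212332_at, was dim in both groups and had a change of -0.01 (95% interval -0.75 to 0.72).

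RBL1 encodes p107, an E2F target gene itself, with the 2 E2F-type matches printed above. Its probe set 205296_at gave 5.83, 11.7 and 6.52 in control cells and 3.06, 2.55 and 3.62 in RASv12 cells. Each RASv12 array was lower than any control array, but all 6 lay within the low controls, so no fold is given (limma adjusted p = 0.12). No pocket protein transcript was therefore called in either direction, while at an unadjusted 95% interval RB1, RBL1 and RBL2 each had 1 probe set below 0.

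Scaling moved every member upward. The 18 hybridization control probe sets were lower on RASv12 arrays by a mean of 0.30 on the log2 scale, and scaling to them moved the median of all probe sets from 0.01 to 0.31. Under it CDKN1A was at 1.28, CDKN1B at -1.08 and CDKN1C (213348_at) at -0.71, each still called. The share of all calls that were rises went from 46.4% to 80.0%. This scaling moves all probe sets of an array by the same amount. Less the shifted median of 0.31, these values therefore had to lie near those reported, which is no check on them.

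**Figure D3:**
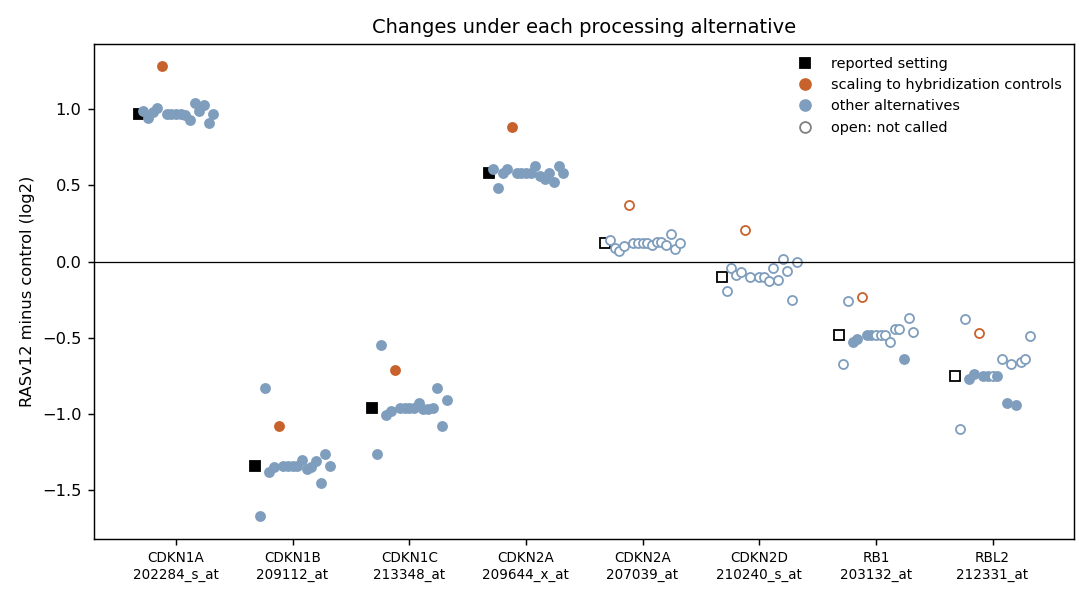
Log2 change of the 8 member probe sets above the low controls under the reported setting (black squares), scaling to the hybridization controls (orange) and the other alternatives (blue), with open symbols where the adjusted p was not under 0.05. CDKN1A, CDKN1B, CDKN1C and the brighter CDKN2A probe set are filled throughout, while RB1 and RBL2 switch between open and filled.

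The other genes of the pathway were described from 6 lists, each gene by its brightest probe set, beside 27.7% of 11963 genes called, 13.0% higher and 14.8% lower, with a median log2 change of 0.02. Up to 4 called genes per list with the largest limma t are named by rule, and any other list gene named was chosen after its values were seen. A gene counted as not passing can have dimmer probe sets that were called. Listed genes without a probe set paired with a single symbol are not counted. Among 18 cyclins and kinases that the members inhibit or that phosphorylate pocket proteins, 3 rose, 5 fell and 10 did not pass (median -0.13). The 5 that fell act in S phase or mitosis. CCNB2 fell by 3.03 ± 0.13 (SE) and CCNB1 by 2.31 ± 0.12, both B-type cyclins of mitosis, and CCNA2 (cyclin A2) was at least 7.19-fold and its mitotic kinase CDK1 at least 8.16-fold lower, the bound being the geometric mean of control intensities over the low control level. CDK2, the kinase of cyclins E and A, fell by 0.48, but neither of its other 2 probe sets was called. CCND2, cyclin D2, rose by 0.84 and CCNE1, cyclin E1, by 0.67, while CDK4 (750 ± 12.6 in control cells and 700 ± 75.6 in RASv12 cells, SD, n = 3) and CCND3 (392 ± 4.58 and 367 ± 53.7) did not pass. CCND1, cyclin D1, with a mean of 1026 in both groups, did not pass either (-0.02). CCNE2, cyclin E2, was dim in both groups on its brightest probe set and did not pass (-0.43), while its other probe set was called lower. CCNA1, the third rise, had means of 4.34 and 21.5, both under the low controls. With scaling to the hybridization controls 5 rose.

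Turnover of the inhibitors is carried out by ubiquitin ligases, and transcripts of several parts fell. Of 17 genes, 1 rose, 7 fell and 9 did not pass (median -0.31). SKP2, the F-box protein that recognises phosphorylated p27, went from 189 ± 6.45 to 64.9 ± 6.76 (SD, n = 3), a fall of 1.31 on the log2 scale. That SKP2 value is from an _x_at probe set, and neither of the other 2 SKP2 probe sets was called. CKS1B, its cofactor for p27, went from 508 ± 37.9 to 194 ± 31.2, a fall of 1.34. CDKN1B itself, at -1.34, was thus lower in RNA on the same arrays as both genes whose products help degrade its protein. DTL, the substrate receptor that with PCNA targets p21, was at least 4.94-fold lower and PCNA fell by 1.27, beside the rise of CDKN1A. CDC34, a ubiquitin-conjugating enzyme, was the rise, at 0.52. SKP1 (-0.02) and CUL1 (-0.10), the core of the SKP2 ligase, did not pass, although 1 of 3 other SKP1 probe sets fell.

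Of 22 E2F, DP, MuvB and co-repressor partners of the pocket proteins, none rose, 3 fell and 19 did not pass in limma (median -0.21), and at an unadjusted p under 0.05 it was 1 up and 4 down. The 13.6% called was under the share of all genes, counting only the brightest probe set of each gene. Among dimmer probe sets, 1 of E2F1, 1 of RBBP4, 1 of 7 of SMARCA4 and 2 of 5 of SMARCA2 were called lower. For E2F5, 1 dimmer probe set was called higher. MYBL2, the activator that replaces p130 on the MuvB core in cycling cells, was at least 3.43-fold lower. RBBP7, a histone-binding protein, fell by 0.93 and TFDP1, the DP1 partner of E2F, fell by 0.50. The other TFDP1 probe set was not called. With scaling to the hybridization controls 4 rose. By contrast, 37 of 38 genes that E2F and pocket protein complexes repress in resting cells fell, none rose (also none at an unadjusted p under 0.05) and FEN1 did not pass, with a median of -1.96. This list was written with the fall of proliferation genes in these data known, so its direction is not independent evidence. It also shares genes with other lists, and their falls are counted in each. CCNA2, CDK1 and CCNB1 are also among the cyclins and kinases, PCNA among the turnover genes and MYBL2 among the partners. KIF20A was at least 9.68-fold lower, NEK2 at least 4.03-fold and CENPE at least 2.86-fold, all mitotic proteins, and MCM5 of the replicative helicase fell by 2.10. The summed intensity of the 38 was 9405 to 10210 on control arrays and 1875 to 1975 on RASv12 arrays.

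Of 17 Polycomb proteins and transcription factors that act on the CDKN2A and CDKN2B locus, 3 rose, 4 fell and 10 did not pass (median -0.15), and 5 rose and 2 fell with scaling to the hybridization controls. EZH2, the histone H3 methyltransferase that silences this locus in dividing cells, was at least 1.60-fold lower, going from 44.9 ± 4.59 to 12.0 ± 1.24 (SD, n = 3; limma adjusted p = 4.0e-04). The Polycomb subunit PHC1 fell by 0.74 and its relative PHC2 rose by 0.62. ID1, which opposes ETS factors at the p16 promoter, fell by 0.77, and ETS1 (0.94) and ETS2 (0.63), which activate it, rose. For ETS1, only 1 of 3 control arrays exceeded the low controls (20.5, 17.5 and 43.1). The other ETS2 probe set was not called. KDM6B, the demethylase that reverses EZH2's mark, was at 0.77 (limma adjusted p = 0.077) where its signal was brightest, and 2 dimmer probe sets of it were called higher.

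Among 23 transcription factors and cofactors that act on CDKN1A, CDKN1B, CDKN1C or CDKN2B, 4 rose, 3 fell and 16 did not pass (median 0.07), and 7 rose with scaling to the hybridization controls. MYC, which represses CDKN1A and CDKN2B through ZBTB17, went from 106 ± 10.7 to 392 ± 55.3 (SD, n = 3), a rise of 1.74. SMAD3, which carries the TGF-beta signal to CDKN2B, went from 524 ± 16.6 to 81.0 ± 14.1, a fall of 2.46. HEY1, a Notch target and repressor, rose by 2.89 and KLF4, an activator of CDKN1A, fell by 1.42. The other KLF4 probe set was not called. FOXO3 (-0.04), an activator of CDKN1B, and ZBTB17 (-0.08) did not pass. MDM2, the p53 target that limits p53, was at 22.6 and 30.3 and did not pass (log2 change 0.27).

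**Figure D4:**
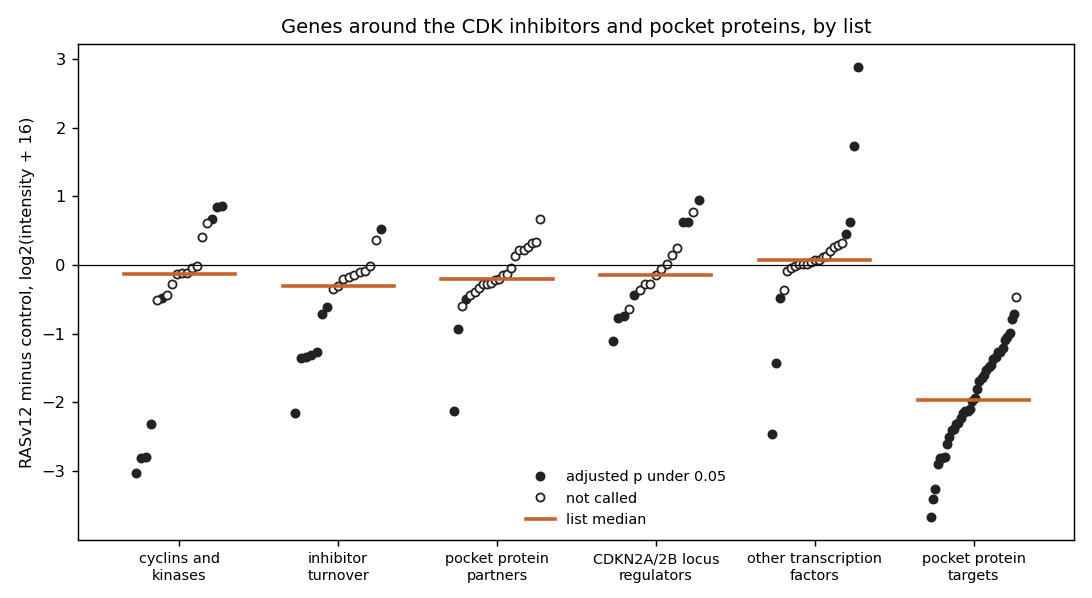
Log2 change, RASv12 minus control, of the genes on 6 lists, each point 1 gene by its brightest probe set, filled where called and open where not, with the list median as an orange bar. The targets of pocket proteins lie at a median of -1.96, and the other 5 lists have medians between -0.31 and 0.07 with called genes on both sides in all but the pocket protein partners. Some targets are also drawn on another list.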

How the data were processed

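RNA was purified, amplified in 2 rounds and labelled with whole-transcript kits, per the labels' protocols. The authors deposited 1 table of linear signal intensity per probe set, made with MAS5, per the submitters' processing notes; its version is not given in the sources used here. Of 22283 probe sets, 68 controls were left out. Symbols came from the platform annotation, updated through gene identifiers to RefSeq (19065 probe sets with 1 symbol, 1043 with several, 2107 with none). Intensities were taken as log2(value + 16). Array medians ran from 5.40 to 5.63, over 0.1 apart, so quantile normalization was applied. Groups were compared with limma 3.58.1 in R 4.3.3 over 22215 probe sets, with Benjamini-Hochberg adjustment and a threshold of 0.05; the fit was tested on simulated data. With 3 arrays per group, their number limits the precision. Array correlations were 0.975 to 0.987 inside a group and 0.912 to 0.928 across groups. Members, lists and the rule for named genes (every member probe set, up to 4 called genes per list with the largest t, and the 3 genes most like CDKN1A, CDKN1B and RB1) were chosen with earlier results of these data known. Alternatives changed the pseudocount, normalization, filter on dim probe sets, variance prior, replicate block and samples; raising dim values to the low controls was added after seeing the data.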

Additional observations from a re-analysis of the deposited data

How the results depend on the processing

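Of 260 comparisons of a member probe set with an alternative, 225 kept direction and side of the threshold, 10 lost the call, 15 gained it and 10 changed sign, all of these in probe sets not called. CDKN1A, CDKN1B, CDKN1C (213348_at) and CDKN2A (209644_x_at) kept direction and call in every alternative run. The member probe sets called lower, 4 as reported, were 2 with scaling to the hybridization controls and 2 with values raised to the low controls, where those dim throughout have no value. Leaving out 1 sample gave 3 to 6 lower, 2 to 3 higher and 3707 to 4991 calls over all probe sets. With the replicate number as a block, 3852 probe sets were called against 5399, and 5 member probe sets were lower (CDKN1B, 3 of CDKN1C and RBL2 212331_at), the last being the addition. The labels do not say that numbers pair samples, and equal numbers had correlations of deviations of -0.226, -0.0282 and -0.07, so they share only a number.

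Sign changes were 0.01 for CDKN1C 219533_at, 0.21 for CDKN2D 210240_s_at and 0.26 for RBL2 212332_at with scaling to the hybridization controls, and 0.03 for RBL2 212332_at with values raised. Leaving out 1 sample at a time, CDKN2D 210240_s_at ranged from -0.25 to 0.02, RB1 211540_s_at from -0.05 to 0.44 and RBL2 212332_at from -0.23 to 0.29. Among list counts that moved over 1.5 times and are not given above, cyclins and kinases rising were 1 and transcription factors rising 2 with values raised, pocket protein partners rising were 1 with the replicate block or without the dimmest 50% and 2 without RASv12 replicate 1, partners falling were 5 without control replicate 3 or with the mean over all probe sets of a gene, and turnover genes rising were 2 without RASv12 replicate 1. The cause was not tested. Signal over background limits CDKN2B, RBL1, CDKN2D and 4 of 5 CDKN1C probe sets.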

Other observations

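The genes whose 6 array values, as log2 differences from their own control mean, lay closest to a member's were found among 7040 genes above the low controls in both groups. Such a difference is small only where the group changes are alike, so the likeness is a description. For CDKN1A they were HLA-B, GLRX3 and RGS3, with root mean square differences of 0.051, 0.068 and 0.076 and log2 changes of 0.99, 0.93 and 1.01. For CDKN1B they were SKP2, MCM4 and FKBP9, with differences of 0.072, 0.074 and 0.076 and log2 changes of -1.31, -1.26 and -1.29. The SKP2 values are from its _x_at probe set, and neither of its other 2 probe sets was called. For RB1 they were NECTIN3, TRIM5 and ALDH4A1, with differences of 0.061, 0.062 and 0.076.

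Of the endothelial markers, TIE1 went from 1.34 ± 0.392 to 48.2 ± 10.3 (SD, n = 3), at least 1.70-fold higher in RASv12 cells, and TEK from 78.6 ± 11.0 to 26.4 ± 9.27. These receptors of the same family differed in direction on the same arrays, although the other TEK probe set was not called.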
